A study of Caenorhabditis elegans with 10 samples.

Results

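Early L1 larvae of Caenorhabditis elegans collected on 4 culture days are described, 8 of the 10 RNA-sequencing libraries of the series. Days 1 and 5 were set against days 4 and 7, with 2 libraries a day, 1 from each strain, and 4 libraries a side. The libraries of day 6 were left out of the comparison and are given as values beside it. The days were paired in this way after expression in these libraries had been seen, that is, the members were chosen by measured expression, so the difference between the sides is a description and carries no p. Only 2 days stood on each side, and libraries of 1 day are not independent cultures of that side. Of 46756 genes listed, 17253 passed a filter on low counts and entered the fit.

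The strain pbrm-1(control), RA685, carries pbrm-1(rd31[pbrm-1::GFP(flox)]) and rdIs79[hnd-1p::ZIF-1]. The strain pbrm-1(TS-KO), RA678, carries the same rd31 allele and the insertion rdIs74, in which the hnd-1 promoter drives a GFP nanobody joined to ZIF-1, and Cre. In both, a GFP-tagged, loxP-flanked pbrm-1 therefore stands in place of the wild-type gene, which encodes a subunit of the PBAF chromatin remodelling complex. The driver insertions are single copies, made in unc-119 mutants. The hnd-1 promoter acts in mesodermal cells of the embryo, so in pbrm-1(TS-KO) larvae most cells are meant to keep PBRM-1. hnd-1 also acts in the mother, so the locus can recombine there and larvae can lack PBRM-1 in every cell. Embryos were freed from adults with hypochlorite and hatched overnight in M9 medium without food, and RNA came from whole larvae. The strains were grown and collected in parallel, each replicate on a different day. The replicate numbers 1, 4, 5, 6 and 7 were taken as those days, although no source states the date behind a number. Libraries are called here by strain and number, for example TS-KO 1 or control 5. In RNA of whole larvae, fewer cells of a type and less RNA per cell cannot be told apart.

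Larvae of C. elegans that hatch without food stop in the first larval stage and live on reserves laid down by the mother. Burning of stored fat yields acetyl-CoA, and the glyoxylate cycle, which worms have and mammals lack, lets carbon from fat enter the synthesis of sugars. Insulin-like signalling through the receptor DAF-2 keeps the FOXO factor DAF-16 out of the nucleus in fed animals, and DAF-16 is needed for survival of the starved larva. Before each molt the epidermis makes a new cuticle from collagens and other matrix proteins, whose mRNAs come and go in a fixed order.

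Control 5 stood apart from the other libraries. In a principal component analysis of the 8 libraries, the first component held 36.4% of the variance and placed control 5 at -58.6, against -19.98 to 31.2 for the other 7. The second component held 25.6% and followed the day pairs in 7 of the 8 libraries. TS-KO 1, TS-KO 5 and control 1 lay at 30.5, 28.5 and 30.7, and the 4 libraries of days 4 and 7 lay between -25.5 and -16.3. Control 5 lay at -14.03, beside days 4 and 7 and against its place in the day pairs. Counts of calls, the leading genes and the families are therefore given with and without control 5. Library totals did not overlap between the sides, at 35922561 to 42973654 counts on days 1 and 5 and 43184144 to 46553938 on days 4 and 7. The 10 most abundant genes took shares that did not overlap either, at 6.68% to 7.24% and 7.28% to 7.58%. The part of depth and of these abundant genes in the results was not tested.

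**Figure D1:**
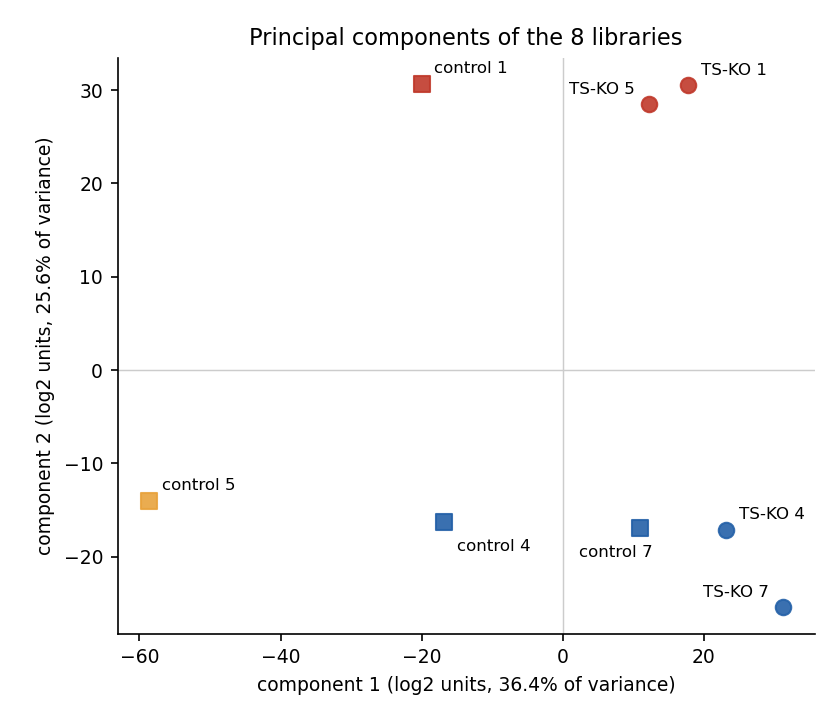
Principal components 1 and 2 of log2 CPM in the 8 libraries, 1 point a library, circles for pbrm-1(TS-KO) and squares for pbrm-1(control). Red and orange mark days 1 and 5, blue marks days 4 and 7; control 5, in orange, lies at -14.03 on the second component, with the libraries of days 4 and 7.

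Genes tied to the strain constructs were read first, and since their levels overlapped between the strains they do not check the strain labels. pbrm-1 had between 234 and 282 normalised CPM (counts scaled to a common library size) in the 8 libraries, and the strains overlapped. Cre removes only some exons of the gene. zif-1, a gene whose coding part both drivers carry, was between 6.85 and 9.33 CPM. unc-119, a neuronal gene used as a rescue marker in strain making, was between 8.57 and 11.4 CPM, and hnd-1 between 0.07 and 0.66 CPM. Markers of larval tissues were present in every library. The summed level of 3 body wall muscle markers (unc-54, myo-3, hlh-1) was 10789 to 12027 CPM of raw totals on days 1 and 5 and 11490 to 13132 on days 4 and 7, and that of 4 neuronal markers was 441 to 496 and 453 to 484. The muscle sum was mostly unc-54, which overlapped between the sides, as did myo-3. By contrast, hlh-1 did not overlap, at 20.9 to 22.0 CPM on days 1 and 5 and 15.9 to 17.7 CPM on days 4 and 7. Of 4 major sperm protein genes, msp-3 had no counts in any of the 8 libraries and the sum of the 4 did not pass 0.14 CPM. The 5 vitellogenin genes of the adult intestine summed to 3.14 to 3.63 CPM on days 1 and 5 and 3.80 to 4.76 on days 4 and 7. This sum was mostly vit-6, which overlapped between the sides, at 1.99 to 2.48 CPM and 2.36 to 3.44 CPM. Of 4 vitellogenin genes in the fit, 2 had a difference above 0 and 2 below, and 1 was higher without overlap.

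A gene was called where its CPM in all 4 libraries of a side lay above all 4 of the other and its fitted difference was at least 1 on the log2 scale, with strain in the fit. By this rule 134 genes were called, 0.777% of those tested. Of these, 112 were higher on days 1 and 5 (0.649%) and 22 were lower (0.128%). Without the limit on size, the sides did not overlap in 2116 genes (12.3%), with 897 higher (5.2%) and 1219 lower (7.07%). Called differences thus lay mostly above 0, whereas more of the small differences without overlap lay below it. The median log2 difference of all genes tested was 0.01. Just inside the 2-fold line stood srj-9 at 1.001 and R12G8.1 at -1.002, and just outside stood srab-16 at 0.996 and dao-6 at -0.995. Called genes were weakly expressed, with a median of 1.44 CPM against 9.96 for all genes tested, and 56 of the 134 had a mean under 1 CPM. Chromosome V held 55 of the called genes (41.0%) and 3937 of the genes tested (22.8%).

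Leaving out control 5 raised the number of called genes to 442 of 17613 (2.51%), 327 higher (1.86%) and 115 lower (0.653%), and 15 of the 134 were no longer called. Genes without overlap then numbered 4500 (25.5%), with 2280 higher (12.9%) and 2220 lower (12.6%). Dropping a library also makes non-overlap easier to meet. Among the 112 genes called higher, control 5 was the lowest of the 4 libraries of days 1 and 5 in 63 and the highest in 27. The rule did not use day 6, and the strains differed there. Over the 134 called genes, TS-KO 6 lay nearer the mean of days 1 and 5 in 108, and control 6 nearer the mean of days 4 and 7 in 95. On the same scale, set by the other 3 libraries of its side, control 5 lay nearer days 1 and 5 in 81 and nearer days 4 and 7 in 53, although the call rule itself keeps it outside the range of days 4 and 7. Control 5 and control 6 thus lay between the sides in many of these genes.

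**Figure D2:**
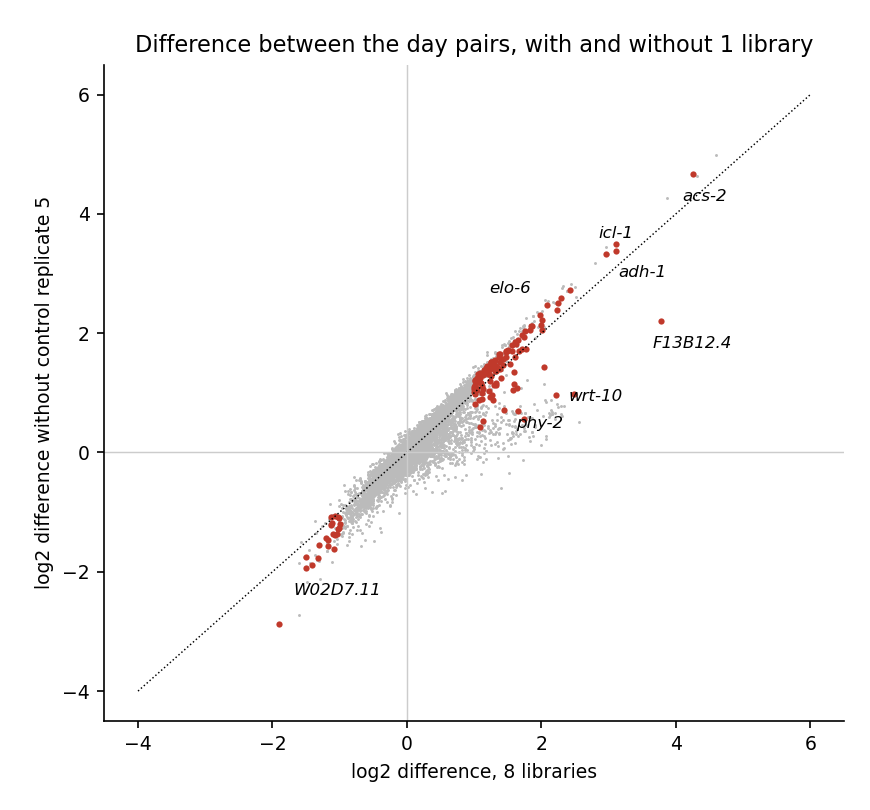
Log2 difference of days 1 and 5 minus days 4 and 7 for each gene tested, with all 8 libraries (x axis) and without control 5 (y axis); the dotted line marks equal values and red points are the 134 called genes. acs-2, icl-1, adh-1 and elo-6 lie above the line, and F13B12.4, wrt-10 and phy-2 lie below it, at 2.21, 0.96 and 0.72 without control 5.

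The largest differences were ranked among protein-coding genes averaging 5 CPM or more, and acs-2, icl-1, acer-1 and elo-6, which act on fatty acids or acetyl-CoA, were among the 12 largest above 0. acs-2 (chromosome V, 15567394 to 15569897 in WBcel235) encodes an acyl-CoA synthetase that readies fatty acids for mitochondrial beta-oxidation and is known to be induced by fasting. Its level was 50.1 CPM in TS-KO 1, 117 in TS-KO 5, 106 in control 1 and 16 in control 5, against 3.81 in TS-KO 4, 2.28 in TS-KO 7, 2.35 in control 4 and 6.62 in control 7. The sides did not overlap, control 5 was the nearest to days 4 and 7, and the log2 difference was 4.25, or 4.66 without control 5. On day 6 acs-2 was at 130 CPM in TS-KO 6 and 11 CPM in control 6.

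icl-1 (chromosome V, 724332 to 728004) encodes the enzyme that carries both steps particular to the glyoxylate cycle. It stood at 701 CPM in TS-KO 1, 1616 in TS-KO 5, 1359 in control 1 and 461 in control 5, and at 113, 112, 121 and 134 in TS-KO 4, TS-KO 7, control 4 and control 7. The lowest library of days 1 and 5 was thus more than 3 times the highest of days 4 and 7, with a log2 difference of 3.10 (3.38 without control 5). Day 6 again split by strain, with 1684 CPM in TS-KO 6 and 195 in control 6. srh-2, a chemoreceptor gene whose annotated start lies 296 bases away on the other strand, was also called, at 1.49.

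adh-1 (chromosome V, 11888248 to 11889650), an alcohol dehydrogenase gene, was at 684, 1354, 868 and 249 CPM in TS-KO 1, TS-KO 5, control 1 and control 5 and between 78.2 and 123 CPM on days 4 and 7, a log2 difference of 2.95 (3.33 without control 5). It overlaps sodh-2 on the other strand, and whether counting used strand is not given in the sources used here, but sodh-2 itself was between 12.2 and 17.2 CPM with a log2 difference of 0.21. acer-1 (2.42, and 2.72 without control 5), annotated as a regulator of acetyl-CoA levels, was at 394, 639, 507 and 168 CPM on days 1 and 5 in the same order and between 71.1 and 87.7 CPM on days 4 and 7. For both genes control 5 was the lowest library of its side and lay close to control 6, which had 246 CPM of adh-1 and 163 CPM of acer-1.

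Among the remaining 8 of the 12 largest differences above 0, elo-6 encodes an elongase that makes the branched-chain fatty acids C. elegans needs to leave the first larval stage. elo-6 was at 99.6, 109, 89.2 and 26.9 CPM in TS-KO 1, TS-KO 5, control 1 and control 5, and between 14.5 and 24.1 CPM on days 4 and 7, so control 5 lay just past the highest of the other side. haao-1 of the kynurenine pathway (1.86), semo-1, a methanethiol oxidase (1.83), and F21C10.10 (2.24) also had control 5 as the lowest library of their side. Without control 5 these 4 log2 differences were 2.47 for elo-6, 2.13 for haao-1, 2.05 for semo-1 and 2.51 for F21C10.10.

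A second set of the 12 was carried by control 5 or included it at full size. F13B12.4 was at 1.69, 3.0, 3.06 and 37.5 CPM in TS-KO 1, TS-KO 5, control 1 and control 5, and between 0.35 and 1.1 CPM on days 4 and 7. Its log2 difference was 3.78 with control 5 and 2.21 without it. wrt-10, a hedgehog-related gene, was at 26.7 CPM in control 5 and between 0.82 and 3.33 CPM in the other 7 libraries, and its difference dropped from 2.22 to 0.96. C44C1.1 was at 6.76 to 6.93 CPM in the other 3 libraries of days 1 and 5 and at 12.2 CPM in control 5, against 2.23 to 3.18 CPM on days 4 and 7. mxl-3, a transcription factor known to repress lysosomal lipase genes in fed worms, was at 10.4, 10.7, 16.7 and 15.1 CPM on days 1 and 5 and at 3.73 to 5.55 CPM on days 4 and 7, with log2 differences of 1.54 and 1.48 with and without control 5.

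Only 6 protein-coding genes of at least 5 CPM were called lower on days 1 and 5, and no role is given for them here. W02D7.11 was at 18.3 CPM in TS-KO 1, 26.2 in TS-KO 5, 18.8 in control 1 and 41.4 in control 5, against 87.7, 117, 56.9 and 49.1 CPM in TS-KO 4, TS-KO 7, control 4 and control 7. Its log2 difference was -1.51, and -1.93 without control 5. B0507.3 (-1.33), Y6E2A.4 (-1.18), D1086.9 (-1.08) and R12G8.1 (-1.002) had log2 differences without control 5 of -1.77, -1.47, -1.61 and -1.198. Control 5 was the highest library of its side for B0507.3, Y6E2A.4 and R12G8.1 and TS-KO 1 for D1086.9. cpg-18 was at 3.16 to 4.73 CPM on days 1 and 5 and 6.51 to 12.8 CPM on days 4 and 7 (-1.11, and -1.18 without control 5).

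**Figure D3:**
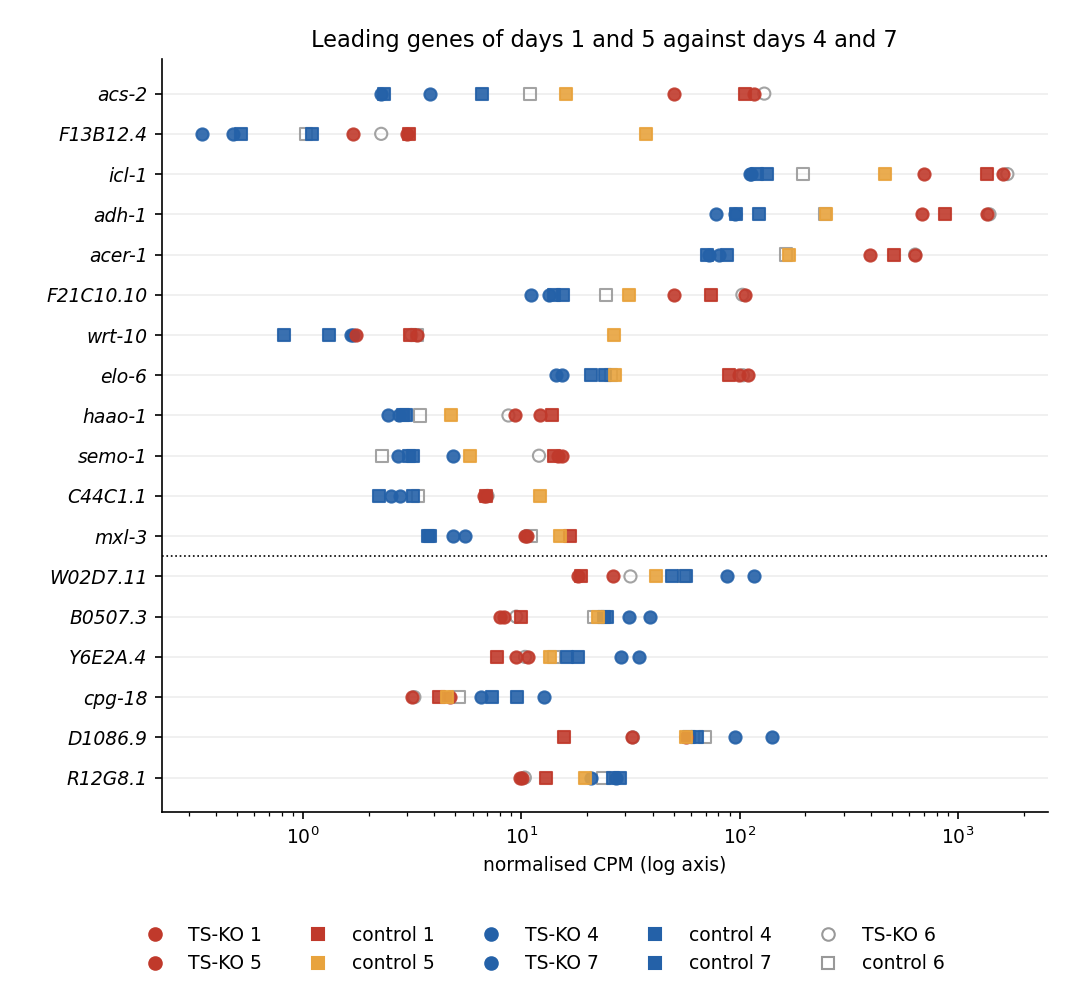
Normalised CPM on a log axis of the 12 largest called differences above 0 (upper) and the 6 below 0 (lower) among protein-coding genes of at least 5 CPM, 1 point a library, circles for pbrm-1(TS-KO) and squares for pbrm-1(control). Red and orange are days 1 and 5, with control 5 in orange, blue is days 4 and 7 and open grey is day 6; icl-1 lies between 461 and 1616 CPM on days 1 and 5 and between 112 and 134 CPM on days 4 and 7.

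Gene families were read next, by name or known function, each with its members tested, called and without overlap, beside the shares over all genes given above. Members named below that are not among the leading genes of a family with 3 or more called members were chosen after their values were seen. Carbon metabolism is taken first. All 15 genes listed for the glyoxylate cycle, gluconeogenesis and trehalose were tested, 2 were called higher (icl-1 and fbp-1), 4 did not overlap and were higher, and none did not overlap and was lower, with a median log2 difference of 0.16 (0.14 without control 5, with 5 higher and 1 lower without overlap). fbp-1, fructose-1,6-bisphosphatase of gluconeogenesis, was at 82.7, 100.3, 103.2 and 69.0 CPM in TS-KO 1, TS-KO 5, control 1 and control 5 and at 41.1 to 46.2 CPM on days 4 and 7, a log2 difference of 1.01 (1.13 without control 5). pyc-1, pyruvate carboxylase, was at 250 to 479 CPM on days 1 and 5 and 182 to 236 CPM on days 4 and 7. pck-1 and pck-2, the phosphoenolpyruvate carboxykinases, overlapped between the sides at log2 differences of 0.25 and -0.16. Glycolysis enzymes had 2 of 19 tested higher and 3 lower without overlap and a median of 0.01, and 3 each without control 5.

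In the citrate cycle and pyruvate entry, a list added after values had been seen, 7 of 29 members tested were higher and 4 lower without overlap, and none was called. The 7 higher included cts-1, citrate synthase (0.69), aco-2, mitochondrial aconitase (0.54), mdh-2, mitochondrial malate dehydrogenase (0.60), and idh-1, an isocitrate dehydrogenase (0.84). cts-1 was at 623, 752, 786 and 477 CPM in TS-KO 1, TS-KO 5, control 1 and control 5 and at 372 to 429 CPM on days 4 and 7. The 4 lower were small in size and belong to later steps or to pyruvate dehydrogenase: dlst-1 (-0.18), ogdh-1 (-0.15), pdha-1 (-0.14) and fum-1 (-0.12). The family therefore held members in both directions, and its median was 0.09. Without control 5 it was 0.05, with 8 higher and 6 lower. Of 43 nuclear genes of the respiratory chain tested, 37 had a difference below 0, and 8 were lower and 2 higher without overlap, with a median of -0.09. Without control 5, 16 were lower and 2 higher, at a median of -0.11. The 12 protein-coding genes of the mitochondrial chromosome, listed after values had been seen, had a median of -0.02, or -0.00 without control 5, and none without overlap in either case.

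Genes of fat synthesis and breakdown did not move as whole families, and a few members carried the differences. Among 30 acyl-CoA dehydrogenase and synthetase genes tested, acs-2 and acs-11 were called higher, 4 were higher and 4 lower without overlap, and the median was 0.07. Without control 5, 3 were called higher and 4 were higher and 6 lower without overlap. acs-19, an acetyl-CoA synthetase homologue, was at 160, 176, 164 and 82.8 CPM in TS-KO 1, TS-KO 5, control 1 and control 5 and at 69.7 to 77.4 CPM on days 4 and 7, a log2 difference of 0.99. Among 15 desaturase and elongase genes tested, elo-6 was called and the median was 0.02, and without control 5, 2 were called at a median of 0.08. elo-5, which acts with elo-6 on branched-chain fatty acids, was at 55.1, 46.0, 44.2 and 13.7 CPM on days 1 and 5 in the same order and at 7.64 to 16.3 CPM on days 4 and 7. Here control 5 lay inside the range of days 4 and 7, so elo-5 was not called at a log2 difference of 1.73, and was called without control 5 at 2.13. The desaturases fat-2, fat-3 and fat-4 had log2 differences between -0.09 and 0.01. Among 8 genes of fatty acid synthesis, also listed after values had been seen, 1 was higher and 2 were lower without overlap, and 3 were higher and 2 lower without control 5. fasn-1, fatty acid synthase, was at 543 to 648 CPM on days 1 and 5 and 323 to 418 CPM on days 4 and 7, and pod-2, acetyl-CoA carboxylase, at 658 to 1178 CPM and 590 to 673 CPM, with control 5 below control 4.

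None of 13 lipase and lipid droplet genes was called or free of overlap with all 8 libraries. lipl-1 and lipl-3, lysosomal lipases known to rise on fasting, were the 2 largest of the list, at log2 differences of 2.44 and 1.35, and were called without control 5 at 2.83 and 1.60. lipl-1 was at 6.53, 5.62 and 3.43 CPM in TS-KO 1, TS-KO 5 and control 1 and at 0.78 CPM in control 5, within the 0.42 to 0.91 CPM of days 4 and 7. The lipases were thus higher on days 1 and 5 in the same libraries as mxl-3, apart from control 5, where mxl-3 was at 15.1 CPM. Of the peroxisomal beta-oxidation genes, a list added after values had been seen, acox-1.1 (0.78) and daf-22 (0.37) were higher without overlap among 15 tested, and 4 were without control 5. In the methionine cycle metr-1, methionine synthase, was at 37.5 to 48.2 CPM on days 1 and 5 and 22 to 26.5 CPM on days 4 and 7, 1 of 2 members higher without overlap among 17 tested. Without control 5, 6 of the 17 were higher and 1 was lower.

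Among genes that act on foreign compounds, the medians of UDP-glycosyltransferases and glutathione S-transferases lay on different sides of 0. In both families the centred medians of single libraries overlapped between the sides. For UDP-glycosyltransferases this was through control 5, at -0.10, below TS-KO 4 at -0.02. UDP-glycosyltransferases attach sugars to small molecules. Of 67 listed genes, 63 were tested, 5 were called higher and none lower, 11 were higher (17.5%) and 2 lower without overlap, and the median log2 difference was 0.33. Without control 5 there were 9 called higher, 26 without overlap and higher (41.3%) and 3 lower, at a median of 0.34. The medians within pbrm-1(control) and within pbrm-1(TS-KO) were 0.32 and 0.34. ugt-13 was at 10.2, 11.3, 25.5 and 5.35 CPM in TS-KO 1, TS-KO 5, control 1 and control 5 and at 2.31 to 7.16 CPM on days 4 and 7. ugt-12 was at 44.2 to 48.4 CPM in the first 3 of these, at 17.5 CPM in control 5 and at 10.9 to 20.7 CPM on days 4 and 7. Both overlapped through control 5, while ugt-48 (0.86) and ugt-22 (0.73) did not overlap. ugt-25, called at 1.98, overlaps mlst-8 on the other strand.

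Of 48 glutathione S-transferase genes tested, none was called, 8 were lower (16.7%) and 1 higher without overlap, and the median was -0.23. Without control 5, 10 were lower and 3 higher without overlap, 1 was called each way, and the median was -0.26. Per library the centred family medians overlapped, at -0.16 to -0.06 on days 1 and 5 and at -0.02, 0.01 and -0.11 in TS-KO 7, control 4 and control 7, while TS-KO 4 stood alone at 0.39. gst-15 was at 18.2, 18, 17.6 and 33.3 CPM in TS-KO 1, TS-KO 5, control 1 and control 5 and at 38.3 to 45.4 CPM on days 4 and 7, a log2 difference of -0.97. gst-20 was at 237 to 299 CPM and 367 to 465 CPM. The family median differed by strain, at -0.03 within pbrm-1(control) and -0.36 within pbrm-1(TS-KO), a difference that was not tested as a family and in which TS-KO 4 enters the second value. Of 67 cytochrome P450 genes tested, 2 were called higher, 3 were higher and 6 lower without overlap, and the median was -0.05. Without control 5 these became 5 called higher and 3 lower, with 14 higher (20.9%) and 15 lower (22.4%) without overlap. Over all genes the shares without overlap were then 12.9% and 12.6%.

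Genes of the insulin to FOXO pathway and its targets had a median below 0. Of 22 tested, 17 lay below 0 and 5 above it. Of these 22, none was called, 11 were lower without overlap (against 7.07% of all genes) and 1 was higher, and the median was -0.28. Without control 5, 12 were lower without overlap, 2 of them called, 1 was higher and the median was -0.34. Among the targets without overlap, sod-3, mtl-1 and ctl-1 were named. sod-3, a mitochondrial superoxide dismutase, was at 10.7, 6.87, 6.17 and 11.1 CPM in TS-KO 1, TS-KO 5, control 1 and control 5 and at 12.3 to 18.2 CPM on days 4 and 7. mtl-1, a metallothionein, was at 37.2 to 78.2 CPM and 80.1 to 124 CPM, and ctl-1, a catalase, at 17.4 to 24.3 CPM and 26.1 to 59.6 CPM. hsp-12.6, a small heat shock gene, had the largest difference of the list (-1.37) but overlapped, since TS-KO 1 at 48.6 CPM lay above control 7 at 39.1 CPM.

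Members of the signalling pathway itself were lower by smaller amounts. daf-2, the receptor, was at 404, 393, 403 and 437 CPM in TS-KO 1, TS-KO 5, control 1 and control 5 and at 474 to 550 CPM on days 4 and 7 (-0.30). daf-16, the FOXO factor, was at 418 to 483 CPM and 503 to 583 CPM (-0.22), and the kinases akt-1 (-0.35) and akt-2 (-0.41) were also lower without overlap. ftt-2, a 14-3-3 protein that binds DAF-16, was the member higher without overlap, at 959 to 1052 CPM and 855 to 935 CPM (0.19). On day 6 the median of the list, centred by gene, was -0.15 in TS-KO 6 and 0.04 in control 6, against -0.22 to -0.03 on days 1 and 5 and 0.06 to 0.15 on days 4 and 7. Since the values of the 4 libraries on each side set the choice of days, these counts carry no test.

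**Figure D4:**
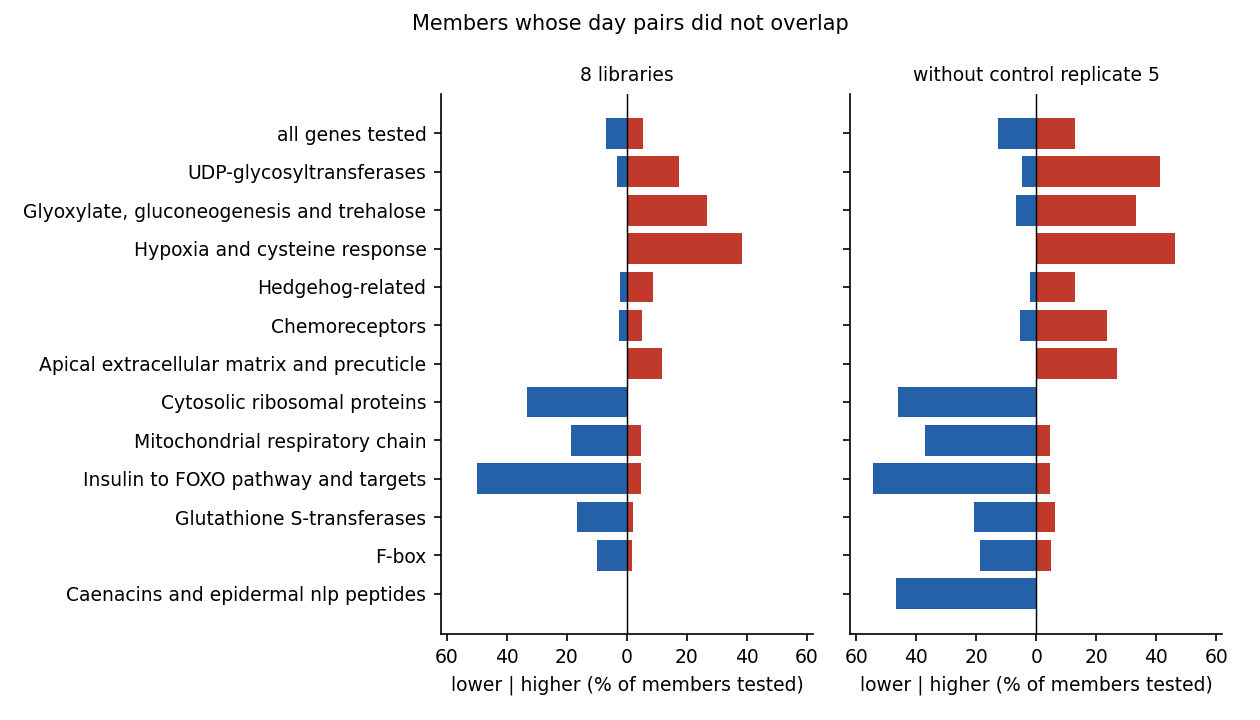
Share of members tested whose 4 libraries of days 1 and 5 all lay above (red, right) or below (blue, left) the 4 of days 4 and 7, in percent, with all 8 libraries (left panel) and without control 5 (right panel). For all genes tested the shares are 5.2% and 7.07%, and 12.9% and 12.6% without control 5; 11 of the 22 genes of the insulin to FOXO list and 33.3% of the cytosolic ribosomal proteins lie lower.

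Cytosolic ribosomal protein genes differed by little but in 1 direction. Of 78 tested, 77 had a difference below 0, 26 were lower without overlap (33.3%), none was higher and none was called. Without control 5, 36 were lower without overlap (46.2%, against 12.6% of all genes) and none was higher. The median was -0.12 with and without control 5, and the members ran from -0.18 to 0.23, the exception being rpl-42, which was at 0.35 to 0.62 CPM. rpl-5 was at 2736, 2510, 2683 and 2648 CPM in TS-KO 1, TS-KO 5, control 1 and control 5 and at 2838 to 3107 CPM on days 4 and 7, so its libraries stood apart by a small margin. Per library the family medians, centred by gene, were -0.15 to -0.02 on days 1 and 5 and -0.01 to 0.13 on days 4 and 7. On day 6 they were -0.07 in TS-KO 6 and 0.09 in control 6. The percentage taken by the 10 most abundant genes, given above, also separated the sides, and its part was not tested. Of 69 mitochondrial ribosomal protein genes tested, 10 were lower and 2 higher without overlap (median -0.07), and translation factors had 5 lower and 6 higher of 42 (median -0.01). Without control 5 the mitochondrial ribosomal proteins had 11 lower (15.9%) and 9 higher (13.04%). The translation factors then had 5 lower (11.9%) and 10 higher (23.8%). Over all genes the shares without overlap were 12.6% lower and 12.9% higher in that fit.

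Of 13 hypoxia and cysteine response genes tested, 5 were higher without overlap (38.5%), none lower, and 3 were called, phy-2, F22B5.4 and cysl-2. The family median was 0.52 within pbrm-1(control) and 0.06 within pbrm-1(TS-KO), a difference that was not tested as a family. On day 6 the median centred by gene was -0.12 in TS-KO 6 and -0.19 in control 6. It was -0.05 to 0.21 on days 1 and 5 and -0.27 to -0.07 on days 4 and 7. phy-2, a subunit of collagen prolyl 4-hydroxylase, was at 16.8, 14.5 and 22.4 CPM in TS-KO 1, TS-KO 5 and control 1, at 93.2 CPM in control 5 and at 9.73 to 13.1 CPM on days 4 and 7. F22B5.4 was also highest in control 5, with 18.3 CPM in control 5 and 3.22 to 5.48 CPM in the other 7. cysl-2, a cysteine synthase-like enzyme that handles cyanide, was at 38.8 to 63.6 CPM and 20.2 to 29.2 CPM, and it overlaps vnut-1 on the other strand. egl-9, the oxygen-dependent hydroxylase that marks HIF-1 for destruction, was at 99.3, 91.1, 90.9 and 64.8 CPM on days 1 and 5 and at 44.8 to 54.6 CPM on days 4 and 7. Without control 5 none of the list was called, at log2 differences of 0.72 for phy-2, 0.53 for F22B5.4, 0.998 for cysl-2, just under the 2-fold line, and 0.86 for egl-9, and 6 of 13 were higher without overlap.

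Furrow collagens and precuticle genes had median differences that were largest with control 5. The 6 furrow collagens, which shape the rings of the cuticle, had a median log2 difference of 2.11 with control 5 and 0.67 without it. dpy-7 was at 66.5 CPM in control 5 and between 1.72 and 6.19 CPM in the other 7 libraries, so the sides overlapped. The apical extracellular matrix and precuticle list had 24 of 26 members above 0 and a median of 1.01, against 0.37 without control 5, and 3 members were higher without overlap and none was called. Without control 5, 7 of the 26 were higher without overlap (26.9%, against 12.9% of all genes) and none was lower or called, and 24 of 26 again lay above 0. noah-1, a zona pellucida domain protein of the precuticle, was at 11.4, 15.4, 25.2 and 208 CPM in TS-KO 1, TS-KO 5, control 1 and control 5 and at 9.15 to 13.1 CPM on days 4 and 7. Within pbrm-1(TS-KO), which control 5 does not enter, the medians were 0.51 for furrow collagens and 0.37 for the precuticle list. Beside these, 3 larval epidermal markers (dpy-7, nhr-23, lin-26) summed to 168 CPM of raw totals in control 5 and to 69.9 to 84.9 CPM in the other 7, and their part in the differences was not tested. The same sum over 9 oocyte and embryo markers was 82.3 CPM in control 5, 42.0 to 67.2 CPM in the other 7 and 96.5 CPM in control 6.

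Of 46 hedgehog-related genes tested, secreted proteins linked to the epidermis and molting, 42 lay above 0, 3 were called higher (wrt-10, grd-13 and grl-21), 4 were higher and 1 lower without overlap, and the median was 0.55, or 0.30 without control 5, where 3 were again called and 6 were higher and 1 lower without overlap. grd-13 was at 47.4 CPM in control 1 and 15.9 in control 5, with TS-KO 1 and TS-KO 5 below both, and at 4.65 to 11.1 CPM on days 4 and 7, so control 1 rather than control 5 was its highest library. wrt-1 and wrt-2 were at 34 and 29.9 CPM in control 5 but also at 9.36 and 6.26 CPM in control 4, above TS-KO 1 and TS-KO 5, and so overlapped. The 118 cuticle collagens tested under the name col had a median of 0.19 with and without control 5. Of these, 6 were higher (5.08%) and 2 lower (1.69%) without overlap, against 5.2% and 7.07% of all genes. Without control 5 these were 8 (6.78%) and 7 (5.93%), against 12.9% and 12.6% of all genes. The 13 molting cycle regulators had a median of 0.21 (0.28 without control 5), with 2 higher without overlap (3 without it).

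**Figure D5:**
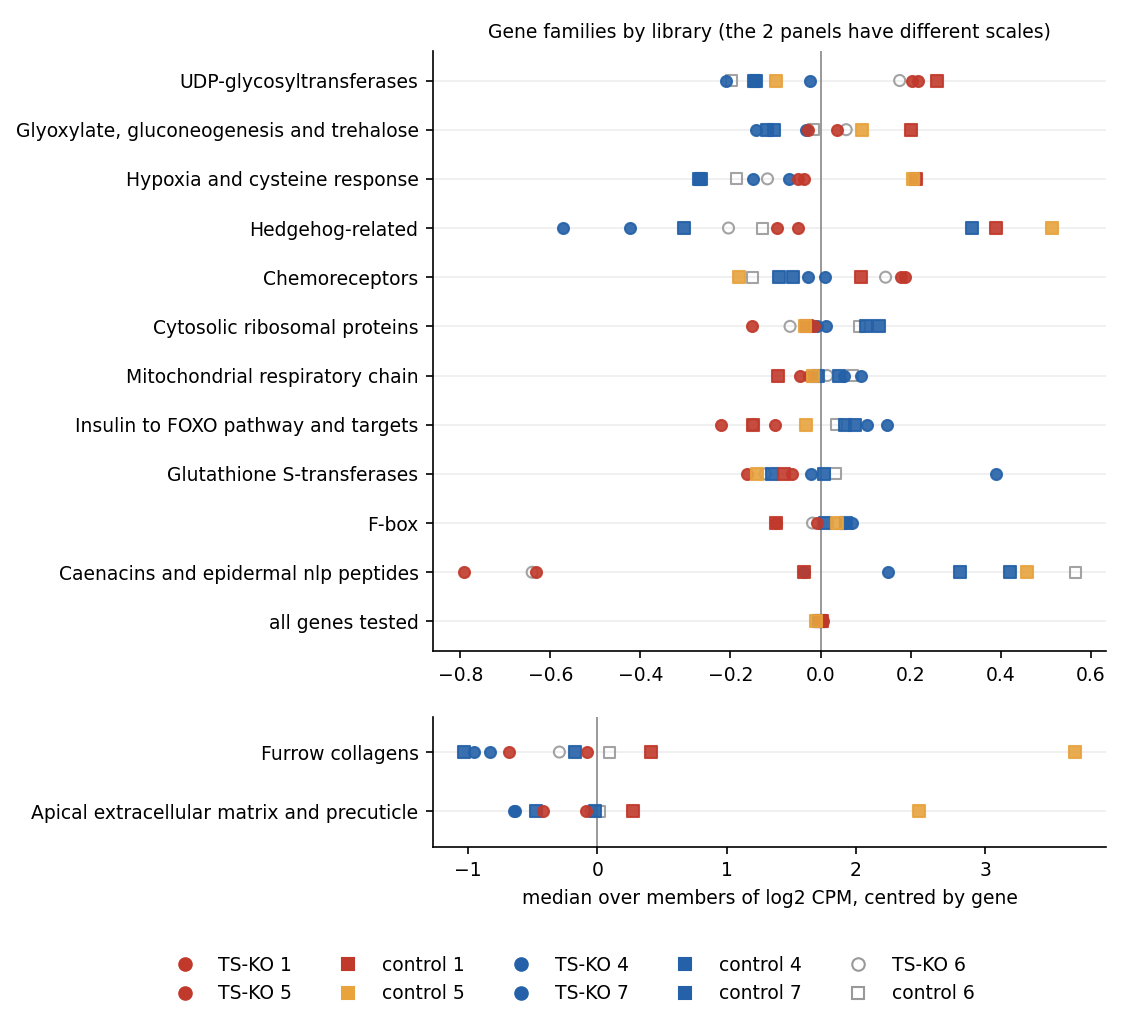
Family level in each library, as the median over members of log2 CPM after centring each gene on its mean over the 8 libraries, with circles for pbrm-1(TS-KO) and squares for pbrm-1(control), red and orange for days 1 and 5, blue for days 4 and 7 and open grey for day 6. Control 5 lies at 3.69 for furrow collagens and 2.49 for the precuticle list, while for UDP-glycosyltransferases it lies at -0.10 and TS-KO 1, TS-KO 5 and control 1 lie at 0.20 to 0.26.

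Epidermal antimicrobial peptides of the caenacin and nlp groups went the other way within pbrm-1(TS-KO). Of 15 tested, 13 lay below 0, none was without overlap or called, and the median was -0.49. Without control 5, 7 of the 15 were lower without overlap, 2 were called lower, and the median was -0.66. It was -0.14 within pbrm-1(control) and -0.85 within pbrm-1(TS-KO). Per library the list stood at -0.79, -0.63, -0.04 and 0.46 in TS-KO 1, TS-KO 5, control 1 and control 5. On days 4 and 7 it stood at 0.15, -0.04, 0.42 and 0.31 in TS-KO 4, TS-KO 7, control 4 and control 7. On day 6 it was at -0.64 in TS-KO 6 and 0.57 in control 6. Among F-box genes, which encode adaptors for protein degradation and form a large family in worms, 198 of 322 listed were tested, 20 were lower (10.1%) and 3 higher without overlap, none was called and the median was -0.06. Without control 5, 37 were lower (18.7%) and 10 higher (5.05%), 4 were called lower and the median was -0.12. Of 128 C-type lectin genes tested, 2 were called higher and 1 lower and 3 were higher and 5 lower without overlap. Without control 5, 6 were called higher and 1 lower, and 15 were higher (11.7%) and 8 lower (6.25%) without overlap. Over all genes the shares without overlap were then 12.9% and 12.6%. With all 8 libraries the 4 with the largest differences at 5 CPM or more all overlapped. Of those, clec-266 and clec-78 were highest in control 5, at 30.9 and 130 CPM, while for clec-173 (0.91) and clec-199 (0.53) control 5 was the lowest library of its side.

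Chemoreceptor genes, which encode receptors of sensory neurons and are mostly too weakly expressed to test in whole larvae, made up the largest family. Of 1300 listed, 582 were tested, 12 were called higher and 1 lower, 30 were higher (5.15%) and 15 lower without overlap, and the median was 0.13. The share without overlap and higher was near the 5.2% of all genes, and the 13 called members, beside 0.649% and 0.128% of all genes, were all expressed under 5 CPM. Without control 5, 57 were called higher and 4 lower, beside 1.86% and 0.653% of all genes. In that fit 137 were higher without overlap (23.5%, against 12.9% of all genes) and the median was 0.22. The 4 members named by rank at 5 CPM or more differed little, with srsx-34 at 0.37, srw-85 at 0.27, srx-45 at 0.24 and srb-16 at 0.13. srh-49 and srh-51, called at 1.76 and 2.01, are neighbours on chromosome I, and reads shared between such similar genes leave their counts uncertain. Of 122 neuropeptide receptors listed, 3 did not pass the filter, 1 was called higher, and 4 were higher and 6 lower without overlap. Without control 5, 2 were called higher, and 40 were higher (33.6%) and 7 lower (5.88%) without overlap, against 12.9% and 12.6% of all genes. Ligand-gated channels had 4 higher and 2 lower of 95 without overlap, and 22 higher (23.2%) and 4 lower (4.21%) without control 5.

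Among 226 nuclear hormone receptor genes tested, a family much enlarged in worms, 3 were called higher and none lower, 15 were higher and 29 lower without overlap, and the median was 0.01. Without control 5, 9 were called higher, beside 1.86% of all genes, and 45 were higher (19.9%) and 37 lower (16.4%) without overlap. The more frequent direction turned, as it did over all genes, from 5.2% higher and 7.07% lower to 12.9% and 12.6%. nhr-6, the homologue of the mammalian NR4A receptors, was at 42.6, 40.9, 41.3 and 22.2 CPM in TS-KO 1, TS-KO 5, control 1 and control 5 and at 11.6 to 21.2 CPM on days 4 and 7, and it overlaps C48D5.3 on the other strand. nhr-216 (1.15), nhr-161 (0.84) and nhr-145 (0.73) overlapped because control 5 lay with days 4 and 7, and without it their log2 differences were 1.44, 1.05 and 0.96. elt-2, the GATA factor of the intestine, was at 45, 42.9, 33.9 and 27.2 CPM on days 1 and 5 in the usual order and 22.1 to 26.2 CPM on days 4 and 7. Other intestinal markers did not follow it: the sum of 4, led by ifb-2, was 2082 to 2915 CPM of raw totals on days 1 and 5 and 2257 to 2955 on days 4 and 7.

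The dependence of the side difference on strain and the differences between the days of a side were tested. The day contrasts draw on values that the pairing used, since days were put together for their likeness, so few genes called there says nothing of how alike the days are. The strain test draws on the same libraries, in both strains, whose values set the sides. Few genes called in it therefore says nothing of how alike the strains are. edgeR's quasi-likelihood test found no gene in which the side difference depended on strain at an adjusted p of 0.05 (0%), and 957 of 17253 genes had an unadjusted p under 0.05 (5.55%). DESeq2 called 26 and limma-voom none. The smallest adjusted p by edgeR was 0.82, and among the genes of smallest p was mxl-3, with a difference of 1.02 within pbrm-1(TS-KO) and 2.07 within pbrm-1(control). This count depended on control 1: without it edgeR called 548 genes, and without day 1 in both strains 261, whereas without control 5 it called none. In both of these fits control 5 alone stands for days 1 and 5 in pbrm-1(control).

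Between the days of a side, edgeR also called no gene with all 8 libraries. Day 1 against day 5 gave 0 genes at an adjusted p of 0.05 (0%), 1608 at an unadjusted p under 0.05 (9.32%) and 37 with DESeq2, and limma-voom gave none. Without control 5, adh-1 alone passed in edgeR, at 685 and 859 CPM in the 2 libraries of day 1 and 1345 CPM in TS-KO 5 (log2 difference -0.97, adjusted p = 0.0105), a fit in which TS-KO 5 alone stands for day 5. Without TS-KO 5, which leaves control 5 alone for that day, 1372 genes passed.

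Day 4 against day 7 gave 0 genes (0%), 691 at an unadjusted p under 0.05 (4.01%) and 45 with DESeq2, and limma-voom gave none. Without control 5 edgeR called 31 genes, 17 higher and 14 lower on day 4, without TS-KO 5 it called 21, and without TS-KO 7 it called 1. Control 5 is on neither day, but it enters the shared estimate of the spread. With the counts rescaled without control 5, zip-10, a bZIP transcription factor gene, was at 9.90 and 10.8 CPM in TS-KO 4 and control 4 and at 28.5 and 28.8 CPM in TS-KO 7 and control 7, a log2 difference of -1.47 (edgeR adjusted p = 0.00275). ugt-44 was at 27 and 27.3 CPM on day 4 and 53.2 and 53.3 CPM on day 7 (-0.97, edgeR adjusted p = 0.00275). Among genes higher on day 4, col-142, a cuticle collagen, was at 30.7 and 24.6 CPM against 8.56 and 11.8 CPM on day 7, and ctl-1 and ctl-2, neighbouring catalase genes, had log2 differences of 0.91 and 0.83. cut-2, a cuticlin, wrt-2, grd-6 and grd-14 were also higher on day 4, by 2.54, 3.07, 2.76 and 3.21 on the log2 scale. These 4 were among 31 genes called, no family was tested in this contrast, and the median difference of day 4 minus day 7 with all 8 libraries was 0.10 for the col collagens, 0.16 for the cuticlins and 0.36 for the hedgehog-related genes. ctl-1 was both lower on days 1 and 5 and higher on day 4 than on day 7. These genes were named after the fit without control 5 had been seen.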

How the data were processed

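Per the paper's methods, the authors trimmed paired-end reads of polyA-selected libraries, mapped them with STAR 2.5.2b to an assembly they name WBcel325, taken as WBcel235, counted uniquely mapped exon reads with featureCounts (Subread 1.5.2) and deposited raw counts per gene. Whether counting used strand is not given in the sources used here. All 10 columns were mapped to samples, and 46581 of 46756 gene IDs were in the annotation (Ensembl WBcel235). Counts of 8 libraries were filtered with filterByExpr, scaled by TMM and fitted with edgeR 4.0.16 in R 4.3.3 (strain plus side), and CPM are scaled counts, with a prior count of 2 on the log scale. Tests were edgeR's quasi-likelihood F tests, two-sided, with Benjamini-Hochberg adjustment at 0.05. The scripts were tested on simulated data.

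The members and lists were chosen with earlier results of these data known. Named were the 12 largest differences in each direction among called protein-coding genes of at least 5 CPM (6 below 0), the 4 leading members of families with 3 or more called, up to 5 genes in each direction of each test, and pbrm-1, hnd-1, zif-1 and unc-119. Another 4 lists were added after values had been seen. Alternatives were RLE factors, no filter, a filter of at least 10 counts in every library, DESeq2 1.42.0, limma-voom (limma 3.58.1), a 1.5-fold limit, other overlap rules, single strains, a replicate block and leaving out each library or day.

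Deviations from strain means of same-numbered libraries correlated at 0.482, 0.270, 0.118, -0.0454 and 0.335 for replicates 1, 4, 5, 6 and 7, against a median of -0.0937 between different numbers. Pairs of libraries within a strain differed by more than counting noise, with a chi-square per degree of freedom of at least 3.24. P-values measure the spread between these libraries. No sequence of the genes is shown.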

Additional observations from a re-analysis of the deposited data

Results flagged for a closer look

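In 54 groups of 4 libraries (the 18 leading genes and 9 families, on each side), 6 held a library flagged as far from the other 3. Control 5 was that library in 4 of them, all on days 1 and 5: elo-6 at 26.9 CPM, semo-1 at 5.82 CPM and C44C1.1 at 12.2 CPM, and UDP-glycosyltransferases at a centred median of -0.10 on the log2 scale. For cytosolic ribosomal proteins TS-KO 5 stood lowest on days 1 and 5, at -0.15, and for the citrate cycle and pyruvate entry control 1 stood highest, at 0.13. Control 5 was above the other 3 libraries for C44C1.1 and below them for the other 3 of its groups. F13B12.4 was not flagged, although control 5 was at 37.5 CPM and the other 3 libraries at 1.69 to 3.06 CPM. The leading genes were chosen from these same libraries, which all groups share, so no chance rate is set beside the 6.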

How the results depend on the processing

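The count of 134 called genes was 133 with RLE factors, 137 with DESeq2, 156 with limma-voom and 185 with overlap judged after removing the strain effect. It was 387 with no filter, 87 with at least 10 counts in every library, 401 at 1.5-fold, 403 on the mean of the strains for each day, 477 within pbrm-1(control) and 702 within pbrm-1(TS-KO). Leaving out a library or a day gave 143 to 531. Not all of the 134 were among these: 91 stayed called without day 1, the fewest, and 124 without control 7, the most. With at least 10 counts in every library, 85 of the 134 stayed called. For the strain by side interaction, 0 genes became 8 with no filter and 26 with DESeq2, and 0 to 548 when a library or day was left out. With the replicate block it stayed at 0, and the block without control replicate 5, chosen after seeing the data, gave 1. The day contrasts compare replicate numbers, so a block cannot enter them. For the side difference, which has no test, the replicate number is nested in side, and the means of each day given above stand in for a block. Day 1 against day 5 gave 37 genes with DESeq2 and 0 to 1372 without single libraries. Day 4 against day 7 gave 45 with DESeq2, 56 with no filter and 0 to 31 without single libraries. Fits without a library that leave 1 library for a day or a strain and side assume that it varies like the rest. Of 853 values of named genes under the alternatives, 814 moved by less than the spread between libraries, 39 by more, and no called gene changed direction. For the family medians these were 1391 and 91 of 1482. The causes of these changes were not tested. Genes under 1 CPM, 56 of the 134, rest on few reads.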
